A study of Cricetiscus sungorus with 216 samples.

Results

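Heat shock proteins and DnaJ proteins are the chaperones of the cell, and the 72 genes described here are those whose symbols start with Hspa, Hspb, Hsp90, Hsph, Dnaja, Dnajb or Dnajc, together with Hspd1 and Hspe1. The rule reads the symbol alone and no measured value, though the set was proposed with earlier results of these data known. Of the 20156 gene symbols listed for the mediobasal hypothalamus (MBH) 70 were members, against 68 of 21821 in the dorsomedial hypothalamus (DMH), 64 of 18960 in the paraventricular nucleus (PVN) and 68 of 22482 in the pituitary gland. A core of 60 members was listed in all 4 tissues. The 72 genes comprise 13 of the HSP70 family (Hspa), 2 cytosolic HSP90 genes, Hsph1, the 2 mitochondrial chaperonin genes, 8 small heat shock genes (Hspb), 45 DnaJ genes (4 Dnaja, 14 Dnajb and 27 Dnajc) and Hspbap1. Dnajb6-ps, a pseudogene by its name, is among them, while Hsp90b1, the HSP90 of the endoplasmic reticulum (ER), does not match the naming rule and is given only beside its partner Hspa5. Hsp90ab1, Hspe1 and Hspa1b were not analysed here in the PVN, nor was Hspb7 in the pituitary.

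The animals were male Djungarian hamsters of 3 to 8 months, a species that enters and leaves a winter state under a constant short photoperiod. Hamsters in a long photoperiod (LP, 16 h of light, labelled LD) were compared with hamsters moved to a short photoperiod (SP, 8 h of light, labelled SD) and killed every 4 weeks from week 4 to week 32, with 6 hamsters in each of the 9 groups. All were killed by cervical dislocation between 2 and 4 h after lights on, the MBH, DMH and PVN were punched from brain sections and the pituitary was collected separately, and no hamster was sampled at more than 1 time, so that the nanopore cDNA libraries, 54 in each tissue, follow groups and not individuals. Weeks 4 and 8 are called induction, weeks 12, 16 and 20 maintenance, and weeks 24, 28 and 32 recovery, and each phase was compared with LP.

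Chaperones bind unfolded or partly folded proteins and keep them from aggregating. HSP70 proteins do so in cycles of ATP binding and hydrolysis that DnaJ proteins start, HSP90 receives a part of their clients, and small heat shock proteins hold unfolded proteins without using ATP. Some members, such as Hspa8 and Hsp90ab1, are made at all times in every cell, while others, such as Hspa1a, Dnajb1 and Hspb1, are induced by heat and other protein-damaging stress through the transcription factor HSF1.

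Depth differed widely between libraries and tissues. After 2 dominant genes, Gm32262 and Lars2, were removed, the libraries used held 45897 to 7173251 counts in the MBH, 87435 to 5882549 in the DMH, 22217 to 998193 in the PVN and 22418 to 391532 in the pituitary. Members took a median of 0.431% of these counts in the MBH, 0.0509% in the DMH, 0.739% in the PVN and 0.228% in the pituitary. In the DMH 6 other genes (Gm33937, Akap5, Bc1, Gm46110, Lrrc17 and Kif3a) took a median of 67.9% of the counts, against 28.9% in the MBH. A DMH library held a median of 633 member counts against 4367 in the MBH. Of the members, 62 in the MBH, 44 in the DMH, 54 in the PVN and 26 in the pituitary were read in 50% or more of the libraries. Levels below are CPM, the counts of a gene divided by the scaled size of its library, and neither levels of different tissues nor levels of different genes are ranked, since the tables were normalised separately and the counts were not divided by transcript length. The tissue labels were checked against defining genes. Pomc, Agrp and Cartpt were read in all 53 MBH libraries used and Gh, Prl and Cga in all 54 pituitary libraries. In the DMH, however, Cck was the only 1 of 5 marker genes read in 50% or more of the libraries. Of the 5 PVN markers Avp, Oxt and Crh were not analysed here, while Trh was read in 51 of 52 libraries and Sim1 in 14. Of the 6 MBH markers, 4 were also read in 50% or more of the PVN libraries.

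Few chaperone genes differed over the 9 groups. In the MBH the small heat shock gene Hspb7 was the exception, at 0 in all 6 LP libraries and read in 9 of 12 libraries of induction, 11 of 17 of maintenance and 4 of 18 of recovery. The chaperones Hspa8, Hsp90aa1 and Hspa5, the last of these in the ER, overlapped between LP and every week of SP in all 4 tissues. The cytosolic Hsph1 and Dnajb1 had lower medians in SP in the DMH without passing the test over all genes, and the calls in the pituitary rest on a few reads. With edgeR's quasi-likelihood F-test and a false discovery rate (FDR, Benjamini-Hochberg over all genes of the tissue) below 0.1, 1 of 70 members was called in the MBH, where 0.327% of all genes were called. In the pituitary 3 of 68 members were called against 9.53% of all genes. No member was called in the DMH, where 4.37% of all genes were, or in the PVN, where 0.0% were. At an unadjusted p below 0.05, edgeR found 2 of 68 members in the DMH (2.94%, against 14.2% of all genes) and 3 of 64 in the PVN (4.69%, against 5.58%), and DESeq2 called 0 members in both tissues. In the MBH 4 of 70 members had an unadjusted p below 0.05 (5.71%, against 7.65%), and in the pituitary 9 of 68 (13.2%, against 17.7%). The members called were Hspb7 in the MBH and Dnajc27, Dnajb5 and Dnajc17 in the pituitary, and each of them was read in fewer than 50% of the libraries of its tissue.

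The comparisons of whole phases gave 1 call among the members, Dnajc13 in the pituitary, lower in maintenance, a direction in which 0.436% of all pituitary genes were called. In maintenance the share of all genes called as higher and as lower was 0.00496% and 0.134% in the MBH, 0.0321% and 0.82% in the DMH, 0.0% and 0.00527% in the PVN, and 0.00445% and 0.436% in the pituitary. By DESeq2 no member was called in any of these comparisons, Dnajc13 included. At an unadjusted p below 0.05, edgeR found 3 members higher and 1 lower in the MBH in maintenance, 0 and 5 in the DMH, 1 and 0 in the PVN, and 2 and 1 in the pituitary. Over all genes the same criterion took 1.58% as higher and 3.86% as lower in the MBH, 0.82% and 8.91% in the DMH, 1.28% and 2.58% in the PVN, and 2.94% and 3.83% in the pituitary.

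In induction and recovery neither edgeR nor DESeq2 called a member in any tissue. The shares of all genes called in these phases were likewise small in the MBH, with 0.00992% higher and 0.0248% lower in induction and 0.0% and 0.0645% in recovery, and in the PVN, with 0.0% in either direction in induction and 0.0% and 0.00527% in recovery. They were 0.00458% higher and 0.527% lower in induction and 0.00917% and 0.266% in recovery in the DMH, and 0.0% and 0.0845% and then 0.0089% and 0.614% in the pituitary. At an unadjusted p below 0.05, 4 MBH members were higher and 0 lower in induction (1.65% and 3.67% of all genes), and 1 was higher and 1 lower in recovery (1.61% and 3.41%). In the DMH 0 were higher and 4 lower in induction (0.958% and 7.15%), and 0 and 4 in recovery (1.02% and 7.7%). In the PVN 0 and 0 passed in induction (1.82% and 2.28%) and 1 and 1 in recovery (1.08% and 3.02%), and in the pituitary 1 and 5 in induction (2.22% and 4.68%) and 0 and 4 in recovery (2.08% and 4.3%).

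Between maintenance and recovery no member was called by edgeR or DESeq2 either, and the shares of all genes called as higher and as lower were 0.00496% and 0.00496% in the MBH, 0.0% and 0.0% in the DMH and the PVN, and 0.0756% and 0.222% in the pituitary. At an unadjusted p below 0.05 1 member was higher and 5 were lower in recovery than in maintenance in the MBH (2.63% and 1.7% of all genes). The lower genes were Hspb7, Hspb2, Hspb1 and the inducible pair Hspa1a and Hspa1b, and the higher gene was Dnajc25. The numbers were 0 and 1 in the DMH (2.76% and 2.41%), 1 and 2 in the PVN (1.77% and 2.52%), and 3 and 4 in the pituitary (2.56% and 4.32%).

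The median log2 fold change of the members from LP to maintenance was 0.13 in the MBH (0.00 over all genes), -0.48 in the DMH (-0.27 over all genes), 0.02 in the PVN (0.00) and 0.01 in the pituitary (0.18). With members at 0 in 1 group set to their counting limit, and those at or under it in both groups left out, the pituitary median turned to -0.03 and those of the MBH, DMH and PVN were 0.13, -0.52 and 0.02. With library totals in place of TMM scaling the MBH median turned to -0.10, while the median of all MBH genes moved by -0.22, and the DMH median became -1.12, with a shift of -0.56 over all DMH genes.

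**Figure D1:**
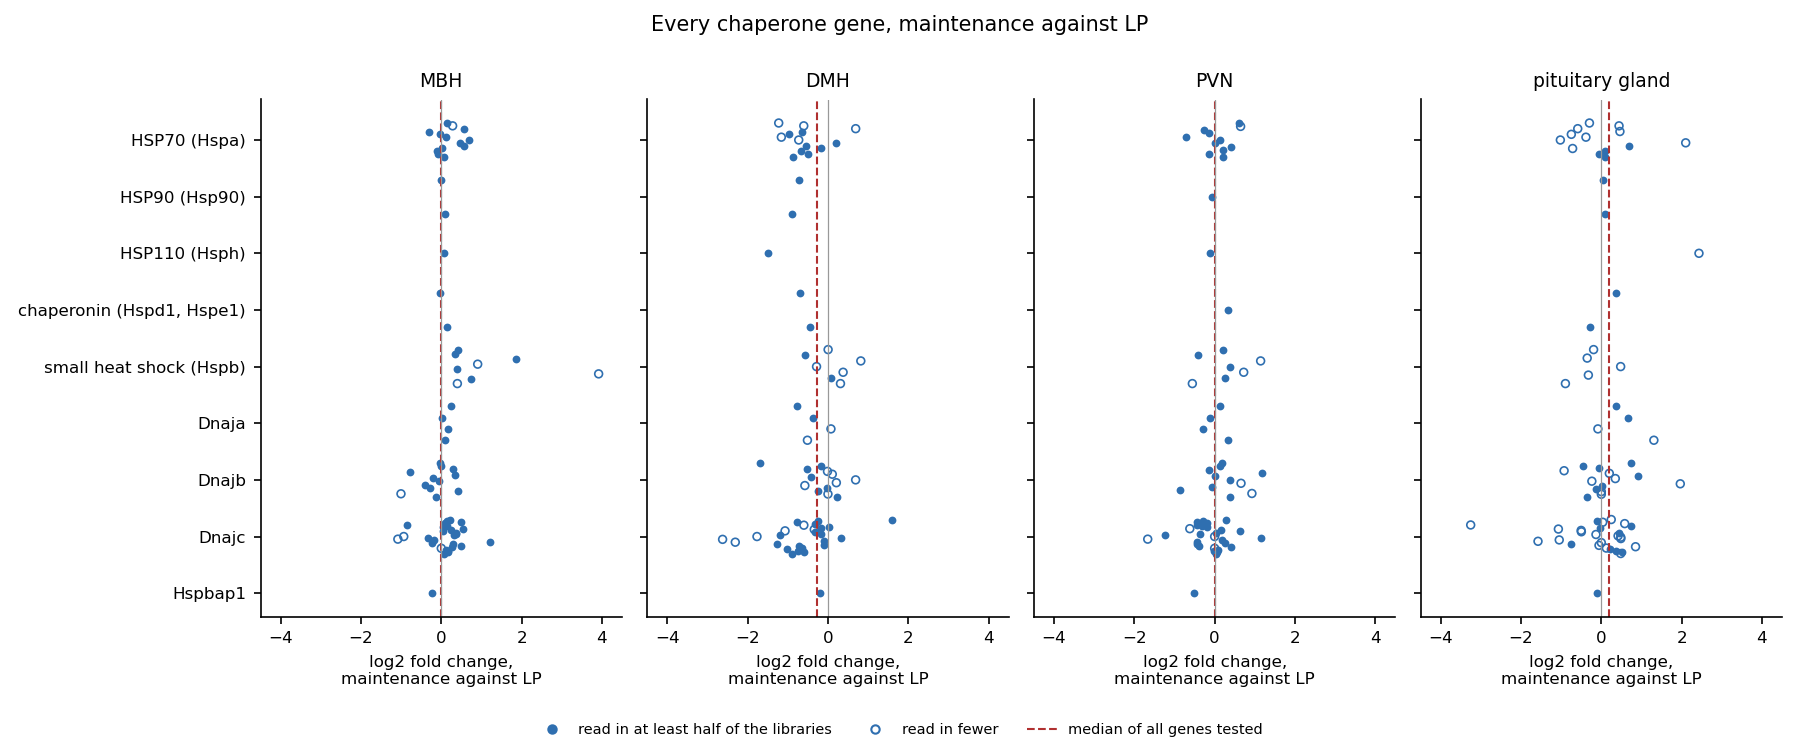
Log2 fold change of each member from LP to maintenance (SP weeks 12, 16 and 20) in each tissue, with members grouped by family. Filled points are members read in 50% or more of the libraries, open points are members read in fewer, and the dashed red line is the median of all genes of the tissue. The members lie on both sides of 0 with medians of 0.13 in the MBH, -0.48 in the DMH, 0.02 in the PVN and 0.01 in the pituitary, and in the MBH and the pituitary the widest values are those of open points.

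Small heat shock proteins form large assemblies that hold unfolded proteins, and several of them, Hspb7 and Hspb2 among these, are best known from heart and skeletal muscle. In the MBH 1 of 8 was called in the F-test, and 3 of 8 (Hspb7, Hspb2 and Hspb1) had an unadjusted p below 0.05, against 0.327% and 7.65% of all MBH genes. When every gene was represented by its highest isoform in place of the sum, these 3 members were called by edgeR. The share of all genes called under that setting is not given here. Hspb7 and Hspb1 were listed with 1 isoform each, so their own counts were the same under both settings, while Hspb2 had 2 isoforms. The family's median log2 fold change from LP was 0.70 in induction, 0.57 in maintenance and 0.30 in recovery. With Hspb7, which was at 0 in LP, set to the bound given below, and with members at or under the counting limit in both groups left out (2 of 8, and 3 of 8 in recovery, with Hspb7 among these), the medians were 0.70, 0.57 and 0.23. The fitted medians had this sign under each way of scaling the libraries that was tried, and the median of all MBH genes was 0.00 in all 3 phases.

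Hspb7 was listed with a single isoform and was read in 24 of 53 MBH libraries with 66 counts in all. In LP it was at 0 in 6 of 6 libraries, which with 3 counts as the limit over the pooled group allows a level of up to 0.410 CPM. In week 4 of SP the lowest, median and highest libraries held 0, 1.82 and 3.65 CPM and in week 8 they held 0, 2.51 and 3.29. In the maintenance phase these values were 0, 1.12 and 3.93 CPM (week 12), 0, 0.485 and 2.88 (week 16) and 0, 0.707 and 4.87 (week 20). From 24 weeks on the median was 0, and the highest libraries of weeks 24, 28 and 32 held 0.867, 0.512 and 0.807 CPM. Hspb7 transcripts were thus read in 9 of 12 libraries of induction and 11 of 17 of maintenance, but in 4 of 18 of recovery. The other libraries of each phase were at 0, level with LP.

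The F-test gave Hspb7 an FDR of 0.0680 by edgeR with Benjamini-Hochberg adjustment. It passed under 7 of 15 alternative analyses, and was lost in DESeq2 (adjusted p = 0.375) and whichever of the replicate numbers 1 to 6 was left out (FDR 0.201 to 0.412 by edgeR). Pooled over libraries the level was 2.06 CPM in induction (31 counts), at least 5.03-fold higher than the LP limit, and in maintenance, with 30 counts, at least 3.65-fold higher. The 95% Poisson intervals of the levels, which cover counting error only, were 1.40 to 2.93 CPM and 1.01 to 2.14 CPM, and the bounds taken at their lower ends were 3.42 and 2.47. Without LP replicate 2 the LP limit was higher and the bounds were 3.21-fold and 2.33-fold. In recovery the pooled level was 0.213 CPM (5 counts), below the LP limit. A 2-sided exact permutation test of the library means against LP gave p = 0.0090 for induction, 0.0425 for maintenance and 0.431 for recovery. These are unadjusted values from a set of 321 such tests over named genes, phases and tissues. Of these tests 22 had p below 0.05. After Benjamini-Hochberg adjustment over the set 1 had a p below 0.1, that of Dnajb1 in the DMH in maintenance, and no test of Hspb7 did. None of the phase comparisons of Hspb7 was called by edgeR after adjustment over all genes. Its FDR was 0.167 in induction, 0.117 in maintenance and 0.209 for recovery against maintenance.

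Hspb2 had an FDR of 0.205 in the F-test by edgeR and was not called. Its median in LP was 0.309 CPM in a range of 0 to 1.72, while the medians from week 4 to week 20 lay between 1.66 and 2.70 CPM with highest libraries of 3.90 to 7.29. The median was 0.626 CPM in week 24 and 0.573 in week 28, and all 6 libraries of week 32 were at 0. The libraries of induction and maintenance overlapped those of LP, with 7 of 12 and 9 of 17 of them above every LP library. The fitted log2 fold change was 1.87 (SE 0.79) in maintenance against LP, with an FDR of 0.671 and an exact permutation p of 0.0342. Between maintenance and recovery it was -2.40 (SE 0.54, FDR 0.198 by edgeR).

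Hspb1, an HSF1 target that binds unfolded proteins and actin, was read at higher counts and in nearly every library. The lowest, median and highest LP libraries held 5.47, 8.34 and 18.9 CPM. The medians of weeks 4, 8, 12 and 16 were 14.8, 18.9, 17.6 and 16.0 CPM, and from week 20 to week 32 they lay between 6.70 and 10.2 CPM. The ranges overlapped at each week, from 13.7 to 31.5 CPM at 12 weeks to 0 to 11.3 CPM at 20 weeks. Its F-test FDR was 0.414 by edgeR, and the exact permutation p against LP was 0.146 in induction and 0.138 in maintenance, so the difference did not pass.

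None of the other small heat shock members had an F-test p below 0.05 by edgeR. Hspb8, the partner of the co-chaperone Bag3 in selective autophagy, had an LP median of 5.90 CPM and weekly medians of 5.90 to 11.7, with a log2 fold change of 0.73 (SE 0.41) in maintenance and an F-test p of 0.381 by edgeR. Hspb6 had an LP median of 1.86 CPM and weekly medians of 1.06 to 4.24. Cryab, the small heat shock protein of the eye lens and glia, lies outside the naming rule. Cryab had an LP median of 31.3 CPM, 68.4 at 8 weeks, and an FDR of 0.138 by edgeR, while DESeq2 called it over the 9 groups. Hspb2 and Cryab are neighbouring genes, and their CPM over the MBH libraries had a Spearman correlation of 0.24.

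**Figure D2:**
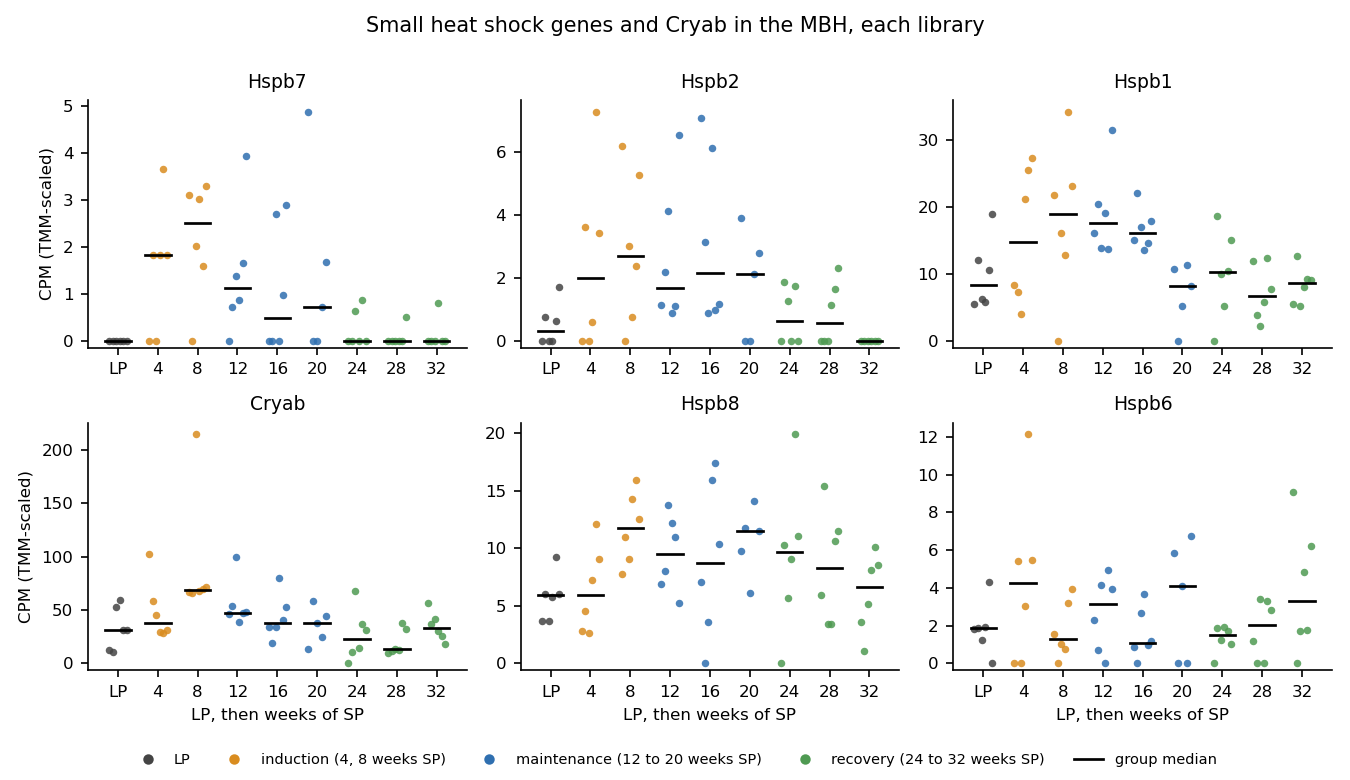
CPM of 5 small heat shock genes and of Cryab in the MBH, in LP and at each week of SP, with each dot 1 library, each bar the group median and colours for the phases. Hspb7 sits at 0 in all 6 LP libraries and in some libraries of every SP week, and reaches 4.87 CPM at 20 weeks. Hspb2 is at 0 in all 6 libraries at 32 weeks, and its libraries of induction and maintenance overlap those of LP. The dots of Hspb8 and Hspb6 also overlap between LP and every week.

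Among 13206 genes read in at least 20 MBH libraries, those whose CPM was most like that of Hspb7 over the 53 libraries were, after Dhrs7c (Spearman rho 0.69), Chrna3 (0.65) and Sugct (0.63), Hspb2 itself with rho 0.62. Hspb1 had a rho of 0.56, Hspb8 0.36, Hspb6 0.35 and Cryab 0.32, and this comparison was chosen after the values of Hspb7 were seen. Hspb2 and Hspb1 had a rho of 0.68 with each other. The points share their libraries and their depth, and the values describe these libraries only.

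Marker genes of other cells were measured beside these values. Of 12 skeletal muscle genes, all were in the MBH table and 2 were called in the F-test, and their summed level was 7.75 to 968 CPM in LP (median 27.1), 5.54 to 146 in induction (median 16.4), 2.18 to 114 in maintenance (median 9.89) and 0 to 558 in recovery (median 11.2). Whether muscle tissue in the punches had a part in the Hspb7 values was not tested. The summed level of 7 pituitary genes, 3 of them called, was 1085 to 3320 CPM in LP (median 2134), 51.7 to 780 in induction (median 329), 22.5 to 676 in maintenance (median 295) and 70.2 to 2469 in recovery (median 355), so that pituitary transcripts were most frequent in the LP samples. Whether the amount of pituitary tissue in the punches had a part in the small heat shock values was not tested. In bulk tissue, fewer cells that express a gene and less RNA of it per cell cannot be told apart.

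In the other tissues the small heat shock genes were close to the limit of counting. Hspb7 was read with 1 count in each of 3 DMH libraries and with 4 counts in 1 PVN library at 12 weeks, where the F-test FDR was 0.867 by edgeR. Hspb2 in the PVN had 22 counts in 12 of 52 libraries and an FDR of 0.890 by edgeR. Its PVN levels were 0 to 2.30 CPM in LP and 0 to 15.1 CPM at 12 weeks, and no group had it in more than 3 libraries. In the DMH and in the pituitary no small heat shock gene was called by edgeR or by DESeq2, and none had an F-test p below 0.05.

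Hspa8, the constitutive HSP70 of the cytosol that also strips clathrin from vesicles, was read in every MBH library and at even levels. The lowest, median and highest LP libraries held 635, 806 and 914 CPM, and the weekly SP medians ran from 687 to 827 CPM inside overlapping ranges. The fitted log2 fold change in maintenance was -0.08 (SE 0.14), a difference smaller than its error. In the PVN the 5 LP libraries used held 1177, 1681 and 1980 CPM, and the weekly medians ran from 1338 at 16 weeks to 1711 at 12 weeks (log2 fold change in maintenance -0.13, SE 0.20). The spread among libraries of a group, as the median coefficient of variation, was 17.3% in the MBH and 16.4% in the PVN.

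In the shallower tables the same gene scattered more. In the DMH Hspa8 was at 79.2, 130 and 186.7 CPM in the lowest, median and highest LP libraries, and its weekly medians ran from 58.3 CPM at 20 weeks to 144 at 12 weeks. The maintenance log2 fold change was -0.51 (SE 0.45), with a coefficient of variation of 57.3%. In the pituitary the LP libraries held 168, 320 and 401 CPM, the weekly medians ran from 239 to 369 CPM, and the log2 fold change was -0.06 (SE 0.40). Gm15459, listed as a gene of its own, followed Hspa8 with a Spearman rho of 0.99 in the DMH and 0.98 in the pituitary, so reads may be split between the pair and the Hspa8 level in these tissues is uncertain.

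Hsp90aa1, the inducible cytosolic HSP90, which receives clients such as steroid receptors and kinases, was as even in the MBH. Its LP libraries held 198, 270 and 319 CPM, the weekly medians 235 to 285, and the maintenance log2 fold change was -0.01 (SE 0.17). In the PVN it ran from 996 to 1643 CPM in LP (median 1154) with weekly medians of 1131 to 1317 and a log2 fold change of -0.08 (SE 0.22). In the pituitary it ran from 51.1 to 169 CPM in LP (median 117), with weekly medians of 90.0 to 141.4 and a log2 fold change of 0.04 (SE 0.47). In none of these 3 tissues did the SP groups separate from LP.

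**Figure D3:**
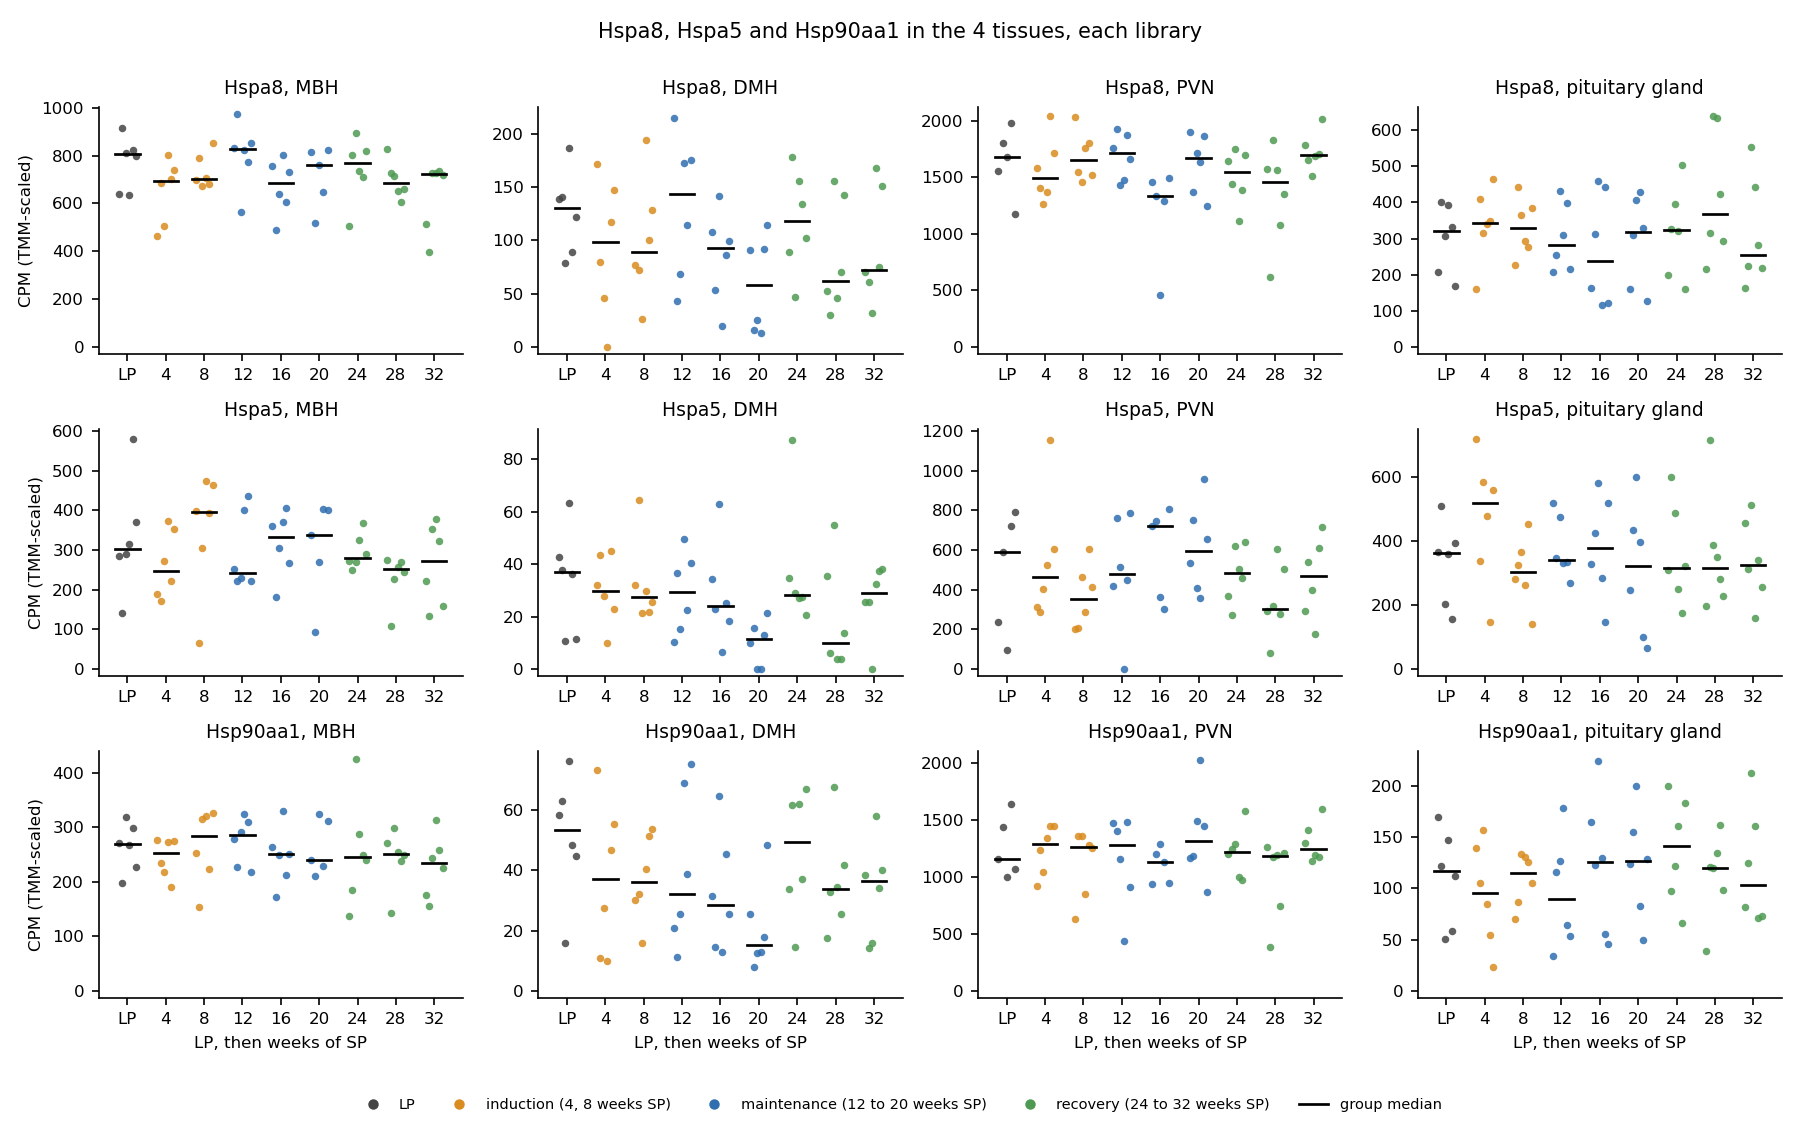
CPM of Hspa8, Hspa5 and Hsp90aa1 in the MBH, DMH, PVN and pituitary, in LP and at each week of SP, with each dot 1 library and each bar the group median. The groups overlap in every panel, as for Hspa8 in the MBH with an LP median of 806 CPM and SP medians of 687 to 827 CPM, and the dots scatter most in the DMH.

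The inducible HSP70 pair Hspa1a and Hspa1b encode nearly the same protein, and reads could not be assigned to them with certainty. In the MBH their counts were equal in 23 of the 49 libraries in which either was read. Hspa1a had a log2 fold change of -0.02 (SE 0.45) in maintenance and Hspa1b 0.12 (SE 0.48). In recovery Hspa1a had a log2 fold change of -0.88 (SE 0.42), with an exact permutation p of 0.0029 and an FDR of 0.911 by edgeR, so that over all genes the difference did not pass.

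The 10 cytosolic genes of the HSF1 programme (Hspa1a, Hspa1b, Hspa8, Hsph1, Hsp90aa1, Hsp90ab1, Dnaja1, Dnajb1, Hspb1 and Hspb8) had a negative median log2 fold change in the DMH in each phase, though none was called by edgeR or DESeq2. In maintenance 2 of 10 had an unadjusted p below 0.05 as lower, in a tissue where 8.91% of all genes did. The median log2 fold change of the list was -0.83, against -0.27 over all DMH genes, and it stayed negative with each scaling tried, with -1.26 for library totals without TMM. Several marker lists also had negative median log2 fold changes in the same comparison, at -0.97 for the 5 neuron genes, -1.09 for the 7 oligodendrocyte genes, -0.89 for the 6 microglia genes and -1.74 for the 4 MBH genes listed, whereas the 5 blood genes were at 0.67 and the 5 DMH genes at 0.36. None of these genes was called in maintenance. Of the other marker lists, the astrocyte genes were at -0.335 with 1 of 5 called as lower. Endothelium was at -0.33, PVN at -0.27, skeletal muscle at -0.16 and pituitary at 0.58, without a call. The summed level of the neuron genes ran from 59.8 to 465 CPM in LP (median 272) and from 0 to 371 CPM in maintenance (median 89.3). Their part in the list's median was not tested. In the MBH the list's median was 0.07, in the PVN 0.03 over 8 genes, and in the pituitary -0.01.

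Hsph1, the HSP110 that exchanges the nucleotide of HSP70, was 1 of the 2 genes. Its LP libraries in the DMH held 5.75 to 42.2 CPM with a median of 12.2. In induction the lowest, median and highest libraries held 0, 1.65 and 12.5 CPM (week 4) and 3.21, 5.18 and 11.9 (week 8), and in maintenance 0, 6.13 and 13.8 (week 12), 0, 4.47 and 14.3 (week 16) and 0, 1.96 and 6.46 (week 20). In recovery the medians were 6.30, 0.977 and 1.56 CPM at 24, 28 and 32 weeks, and the highest library held 16.96 CPM. The 8 SP medians were all below that of LP, but the ranges overlapped at each week.

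The log2 fold changes of Hsph1 were -1.47 (SE 0.68) in induction, -1.50 (SE 0.63) in maintenance and -1.53 (SE 0.63) in recovery. The unadjusted exact permutation p-values were 0.0029, 0.0026 and 0.0031, while the FDR over all DMH genes was 0.502, 0.380 and 0.419 by edgeR. The value in maintenance depended on single libraries and on isoforms, with -0.89 without the libraries numbered 3 and -0.97 when the highest isoform replaced the sum. Pooled over libraries, in which deep libraries count for more, Hsph1 was at 12.0 CPM in LP and at 7.81, 7.47 and 7.64 CPM in the 3 phases.

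Dnajb1, the DnaJ partner of the inducible HSP70, was read in 6 of 6 LP libraries of the DMH, at 1.91 to 5.28 CPM with a median of 3.47. In maintenance it was read in 7 of 18 libraries, with a median of 0 and a highest library of 2.57 CPM. The weekly medians ran from 0 at 16, 20 and 32 weeks to 1.39 CPM at 12 weeks, and single libraries of recovery reached 12.0 CPM. The log2 fold change in maintenance was -1.68 (SE 0.68) with an exact permutation p of 0.00023 and an FDR of 0.342 by edgeR. Of the 321 permutation tests this was the 1 with a p below 0.1 after Benjamini-Hochberg adjustment over the set, while the edgeR test over all genes did not pass. Pooled over libraries, the levels were closer, with 2.54 CPM in LP (95% Poisson interval 1.85 to 3.40) and 1.59 in maintenance (1.20 to 2.07).

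Dnaja1, which guides HSP70 to newly made proteins and receptors, had a DMH median of 36.3 CPM in LP within a range of 24.7 to 51.2. In maintenance the median was 24.0 CPM (exact permutation p = 0.0130) and in recovery 22.4 (p = 0.0250), with ranges that overlapped LP. The log2 fold change in maintenance was -0.77 (SE 0.44), which was not called by edgeR. Hsp90aa1 in the DMH ran from 15.8 to 76.3 CPM in LP (median 53.5), with weekly medians of 15.4 at 20 weeks to 49.4 at 24 weeks and a log2 fold change in maintenance of -0.73 (SE 0.41).

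**Figure D4:**
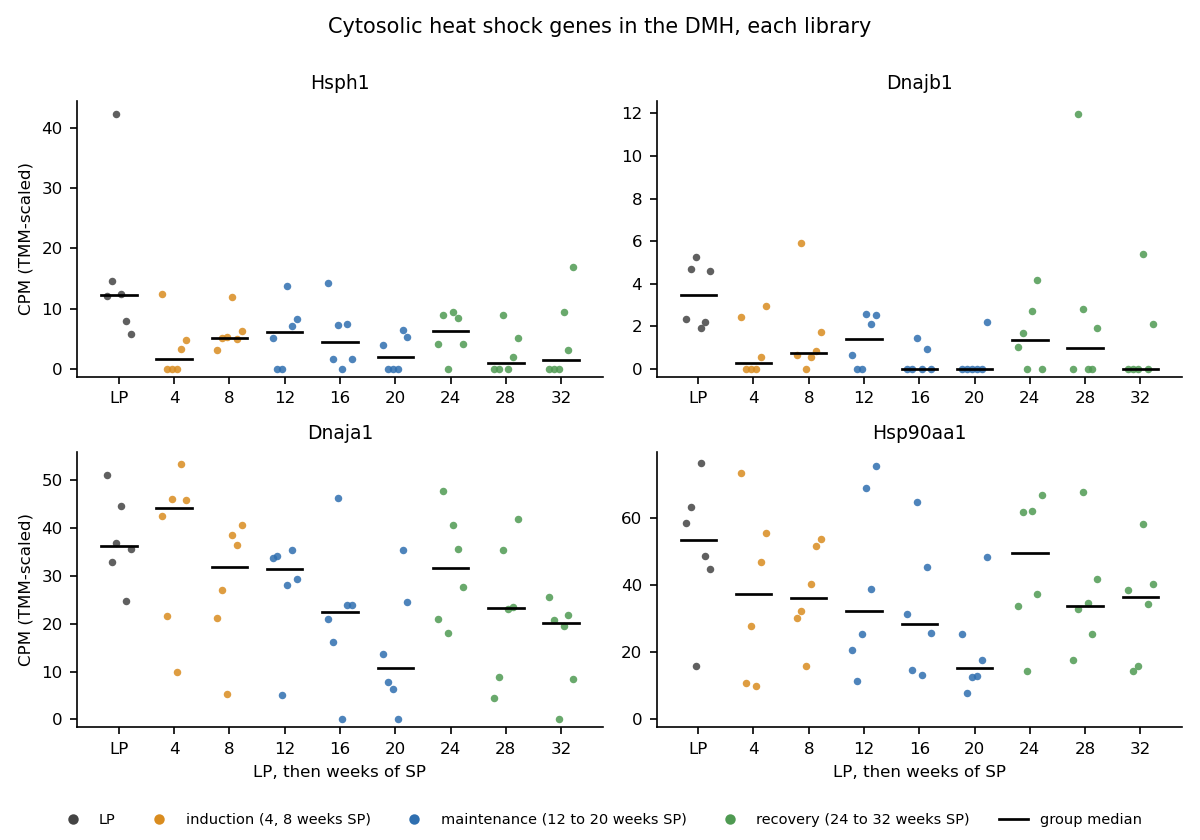
CPM of Hsph1, Dnajb1, Dnaja1 and Hsp90aa1 in the DMH, in LP and at each week of SP, with each dot 1 library and each bar the group median. For Hsph1 the LP median of 12.2 CPM is above the median of every SP week, and libraries of all groups overlap in range.

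All members together took a lower median share of the DMH counts in SP, an untested description, with 0.0828% in LP, 0.0696% in induction, 0.0504% in maintenance and 0.0406% in recovery. The 6 dominant DMH genes took a median of 66.4% in LP and of 69.8%, 68.1% and 68.1% in the phases. In the MBH the members' share was 0.457% in LP and 0.411% to 0.432% in the phases, in the PVN 0.728% and 0.727% to 0.753%, and in the pituitary 0.202% and 0.221% to 0.247%. What part the dominant genes had in the DMH values was not tested.

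The ER members fold secreted and membrane proteins, and their induction is a mark of the unfolded protein response. Hspa5 (BiP), the HSP70 of the ER lumen, ran from 141.1 to 580 CPM in the MBH in LP (median 303), with weekly medians of 241 at 12 weeks to 395 at 8 weeks, and a log2 fold change in maintenance of -0.12 (SE 0.26). In the pituitary, a gland of secretory cells, it ran from 157 to 510 CPM in LP (median 362), with weekly medians of 302 to 517 and a log2 fold change of 0.10 (SE 0.41). A pair of Hspa5 isoforms held equal whole values in 51 of 53 MBH libraries and in 45 of 46 pituitary libraries with enough reads to tell, so the sum over isoforms may count reads more than once and its level is relative.

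In the PVN Hspa5 ran from 96.4 to 793 CPM in LP (median 589), with weekly medians of 304 at 28 weeks to 719 at 16 weeks, and a log2 fold change in maintenance of 0.22 (SE 0.38). In the DMH it ran from 10.6 to 63.4 CPM in LP (median 36.9), with weekly medians of 9.88 to 29.8 and a log2 fold change of -0.68 (SE 0.47). In each tissue the SP groups overlapped LP. Of the 9 genes of the ER list, which holds Hsp90b1, Hspa13, Dnajb9, Dnajb11, Dnajc1, Dnajc3, Dnajc10 and Dnajc25 beside Hspa5, none was called in any tissue by edgeR or DESeq2, and 1 had an F-test p below 0.05 in the MBH and 1 in the DMH, in both tissues Dnajc25.

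Dnajc25, a DnaJ protein of the ER membrane, rests on few reads. In the MBH it had 18 counts in 7 of 53 libraries (FDR 0.361 by edgeR), none of them between 8 and 20 weeks, and its highest library held 4.84 CPM at 32 weeks. In the DMH it had 19 counts in 7 of 54 libraries (FDR 0.144 by edgeR), with a highest LP library of 1.56 CPM and none read at 8, 12, 20 and 24 weeks. Hspa13, an ER protein of the HSP70 family, came next to Dnajc25 and Dnajc28 among the DMH members by F-test p (FDR 0.413 by edgeR), with weekly medians of 0 to 3.29 CPM against an LP median of 0 and a highest LP library of 1.75 CPM. For the ER sensors and foldases fixed as a list of 20 genes (Calr, Pdia4, Xbp1, Atf4 and others), 1 gene was called, Atf6 in the DMH (FDR 0.0888 by edgeR), on 243 counts in 21 libraries. In this tissue 4.37% of all genes were called, and DESeq2 called none of the 20 genes there.

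The mitochondrial members import and fold matrix proteins, with Hspa9 as the HSP70 and Hspd1 and Hspe1 as the chaperonin. None of the 9 genes of this list was called in any tissue, and the only F-test p below 0.05 was that of Dnajc28 in the DMH (FDR 0.208 by edgeR). Dnajc28 had 118 counts in 15 of 54 DMH libraries, with an LP range of 0 to 2.65 CPM (median 0.0973), a median of 1.39 CPM at 24 weeks, and 0 in all libraries at 20 and 32 weeks. Hspe1 was the most even member of the fixed set in the MBH, with a coefficient of variation of 14.7% and a log2 fold change in maintenance of 0.15 (SE 0.16). Hspd1 had log2 fold changes of -0.03 (SE 0.22) in the MBH, 0.33 (SE 0.33) in the PVN and 0.37 (SE 0.54) in the pituitary.

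Dnajc5 (cysteine string protein) keeps SNARE proteins of synaptic vesicles folded, Dnajc6 (auxilin) recruits Hspa8 to clathrin coats, and Dnajc13 acts on endosomes. In the PVN Dnajc5 ran from 204.7 to 381 CPM in LP with a median of 330. The SP medians were 486, 407, 454, 340, 435, 473, 474 and 440 CPM from week 4 to week 32, all above that of LP, and each week's range overlapped that of LP. The log2 fold change in maintenance was 0.42 (SE 0.24, FDR 1.0 by edgeR), and the exact permutation p was 0.0470 in induction, 0.0325 in maintenance and 0.0552 in recovery. Without the libraries numbered 6 the value in maintenance was 0.23. In the MBH the log2 fold change of Dnajc5 was 0.26 (SE 0.25), and Dnajc6 had 0.12 (SE 0.32) in the MBH and 0.07 (SE 0.40) in the PVN.

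Dnajc13 in the pituitary was the only member called in a comparison of a phase with LP. It had 8 counts in 3 of 6 LP libraries, at 0 to 52.1 CPM with a median of 8.17. In maintenance it had 1 count in 18 libraries, at 5.33 CPM in 1 library of week 16. The log2 fold change was -3.25 (SE 0.83), with an FDR of 0.0553 by edgeR, and an exact permutation p of 0.00988. In recovery it was read again in 3 libraries, with a highest value of 40.5 CPM at 24 weeks. The call rests on 23 counts in the whole tissue and was lost when libraries numbered 1, 2 or 4 were left out, with log2 fold changes over all such omissions between -3.61 and -2.51.

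The 3 pituitary genes called over the 9 groups also had most of their reads in a few libraries. Dnajc27, a protein with a J domain and a GTPase fold (FDR 0.00543 by edgeR), had 79 counts in 12 of 54 libraries. In LP it was read in 1 library only, with 20 counts or 121 CPM, at 16 weeks in 3 libraries with 42 counts and up to 289.4 CPM, and at 24 weeks in 1 library with 229 CPM. Every other week had a median of 0 and a highest library of 5.56 to 17.5 CPM.

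Dnajb5, an HSP70 partner of the Dnajb1 type (FDR 0.0222 by edgeR), had 79 counts in 11 libraries. It was at 0 in all LP libraries, had 21 counts in 3 libraries at 8 weeks and 33 counts in 2 libraries at 16 weeks, where the highest held 171 CPM, and was at 0 again at 12 and 32 weeks. Dnajc17, a DnaJ protein of the nucleus with an RNA-binding motif (FDR 0.0696 by edgeR), had 15 counts in 10 libraries, with medians of 4.13 CPM at 12 weeks and 2.67 at 16 weeks and 0 elsewhere. Its call passed under 5 of 15 alternative analyses, with FDR values of 0.0831 to 0.466 by edgeR when the libraries of 1 replicate number were left out, while Dnajb5 and Dnajc27 passed under 13 of 15 each. DESeq2 called none of these 3 genes, and none was left after a filter on low counts. In none of the 3 did the libraries of a week or a phase separate from those of LP.

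**Figure D5:**
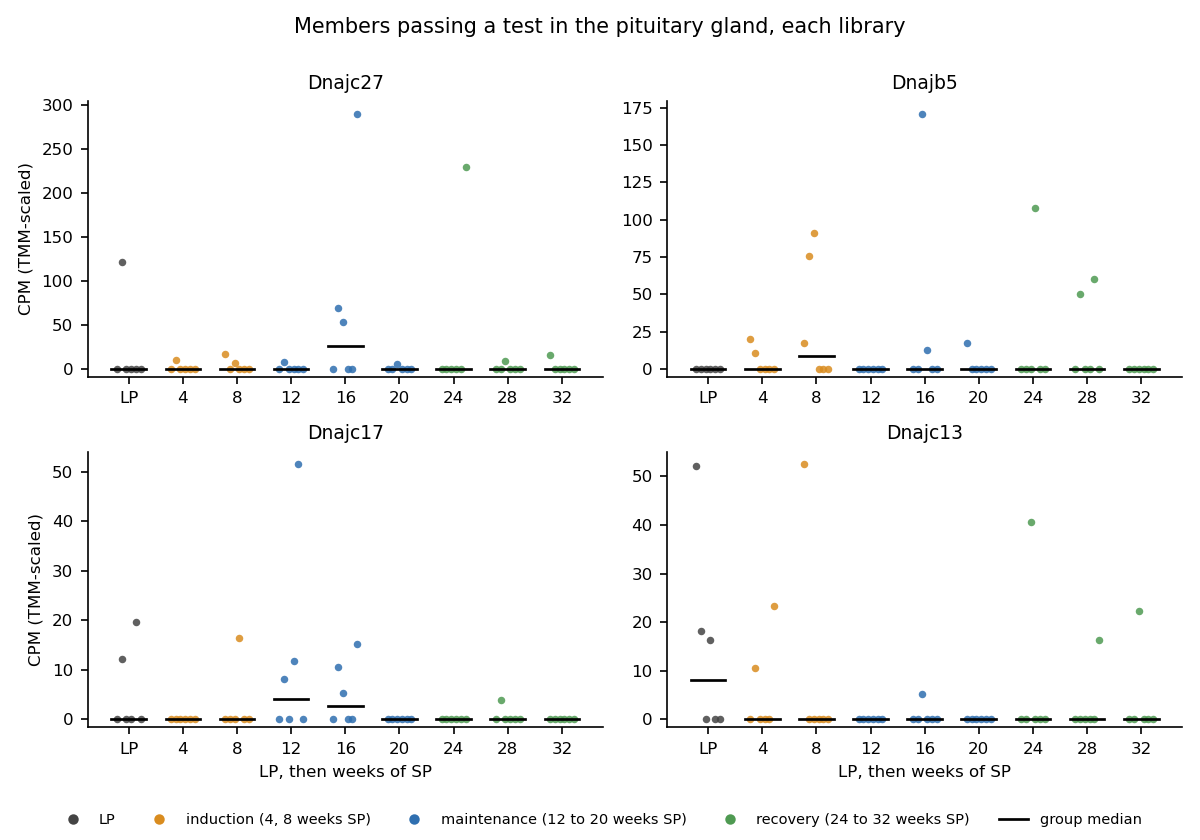
CPM of Dnajc27, Dnajb5, Dnajc17 and Dnajc13 in the pituitary, in LP and at each week of SP, with each dot 1 library and each bar the group median. Most dots lie at 0, and single libraries such as 289.4 CPM for Dnajc27 and 171 CPM for Dnajb5 at 16 weeks stand above the rest of their groups.

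Hsph1 had a fitted difference of the opposite sign in the pituitary, without a call in either tissue. In LP it had 1 count in 6 libraries (highest library 19.6 CPM), and in maintenance 43 counts in 12 of 18 libraries, with medians of 22.1 CPM at 12 weeks, 20.6 at 16 weeks and 0 at 20 weeks. The log2 fold change was 2.43 (SE 1.10, FDR 0.643 by edgeR), and the exact permutation p was 0.087. The difference between the tissues was not tested, since the tables were normalised separately.

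In the PVN the smallest F-test p among the members was that of Hspa12b, a distant HSP70 relative found in endothelium (FDR 0.744 by edgeR). It ran from 0 to 4.60 CPM in LP, with medians of 4.85 CPM at 4 weeks and 5.94 at 12 weeks, up to 60.2 CPM in 1 library, and 0 in all libraries at 16 weeks. The groups overlapped at 0.

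The regulators of the family were described from lists fixed with it. Among 21 heat shock factors and co-chaperones, no gene was called by edgeR in the MBH, the DMH or the PVN, where 1, 1 and 0 of them had an F-test p below 0.05, and DESeq2 called 1, Cryab in the MBH. In the pituitary 3 were called, Hsf1, the master factor of the heat shock response (FDR 0.0202, 133 counts in 15 libraries), Hsf4 (FDR 0.0465, 45 counts in 6 libraries) and Hspbp1, an exchange factor of HSP70 (FDR 0.0268, 33 counts in 15 libraries), in a tissue where 9.53% of all genes were called, and DESeq2 called none of the 3. In the MBH Hsf1 had a log2 fold change of -0.01 (SE 0.58) in maintenance. The cold-inducible RNA-binding genes Cirbp and Rbm3 had -0.08 (SE 0.17) and 0.01 (SE 0.23) in the MBH, and none of the 4 genes of that list was called in any tissue.

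Partner chaperones were also compared from library to library within groups, as deviations of log2(CPM + 1) from the group mean. Hspa8 and Hsp90aa1 had a Pearson r of 0.39 (Spearman rho 0.34) over 53 MBH libraries, 0.70 (0.74) over 54 DMH libraries, 0.38 (0.40) over 52 PVN libraries and 0.07 (0.09) over 54 pituitary libraries. The permutation p of r, adjusted over the 8 relations tested, was 0.0125, 4e-05, 0.0148 and 0.634, and that of rho 0.0214, 4e-05, 0.00796 and 0.523. Without the 2 libraries farthest from the median of Hspa8, r was 0.24, 0.72, 0.36 and 0.13.

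Hspa5 and Hsp90b1, the main chaperone pair of the ER, had r = 0.37 (rho 0.53) in the MBH, 0.62 (0.63) in the DMH, 0.21 (0.16) in the PVN and 0.13 (0.20) in the pituitary. The adjusted permutation p of r was 0.0332, 4e-05, 0.182 and 0.402, and that of rho 0.000187, 4e-05, 0.284 and 0.207, and r was 0.26, 0.60, 0.16 and 0.16 without the 2 outermost libraries. The DMH p-values are the smallest the 100000 permutations can give before adjustment. In the DMH the median rho of Hspa8 with all genes read in 50% or more of the libraries was 0.55, against 0.15 in the MBH, 0.18 in the PVN and 0.15 in the pituitary, and Hsp90aa1 ranked 521 of 7157 genes there. For Hspa5 these medians were 0.16 in the MBH, 0.35 in the DMH, 0.07 in the PVN and 0.20 in the pituitary.

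Among genes with a mean of at least 50 CPM, those whose deviations were most like Hspa5 were Rtn3 (rho 0.76) and Basp1 (0.75) in the MBH, and Ganab (0.79), a glucosidase of the ER, in the PVN. For Hspa8 they were Tuba1b (0.73) in the MBH, with Calr at 0.59, Aldoa (0.88) in the DMH beside the copy Gm15459 (0.98), and Pdia6 (0.71) and Ubb (0.70) in the PVN. In the pituitary the copy Gm15459 (0.98), Gm8355 (0.77) and Gm6210 (0.74) came before Ubb (0.64). Ubb encodes ubiquitin, which is itself a heat shock gene. These are descriptions over 52 to 54 libraries that share depth and punch, without a test.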

How the data were processed

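Full-length cDNA of the 4 tissues was sequenced on a nanopore device, and per the study's methods and labels the authors aligned the reads to a mouse genome with minimap2, quantified them with Salmon and filtered low transcripts. The deposited values are estimated counts per isoform and library, not normalised. The gene identifiers of the PVN table differ from those of the other tables, and no source used here names its annotation. The labels name a PCR-cDNA kit for all tissues, whereas the study's methods describe a direct cDNA kit for the pituitary, and which was used there could not be settled.

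Isoforms were summed per gene symbol and rounded, Gm32262 and Lars2 were removed, and libraries under 10000 counts were left out (1 of week 20 in the MBH, and 1 of LP and 1 of week 16 in the PVN, of 54 in each tissue). Counts were scaled by TMM and tested with the quasi-likelihood test of edgeR 4.0.16 (edgeR 3 form, R 4.3.3) over 9 groups without a filter on low counts, with Benjamini-Hochberg adjustment over all genes of a tissue and an FDR below 0.1, while DESeq2 1.42.0 was an alternative. Exact permutation tests were 2-sided on mean CPM (Python 3.11.15, scipy 1.17.1), and all their p-values are given unadjusted. Within a tissue each library is a separate hamster, so p-values measure the spread between hamsters and their libraries. The 4 tissues came from the same hamsters, so results of different tissues are not independent of each other. The members and the lists were chosen with earlier results of these data known. Named were members called, the 3 smallest F-test p-values of each tissue, a fixed set of 20 chaperone genes, called genes of the other lists with Hsf1, Cirbp, Rbm3 and Cryab, and genes most like Hspa5 and Hspa8. Hspb6 and the genes like Hspb7 were added after their values were seen. Other settings were scaling by DESeq2 size factors or library totals, keeping all genes or libraries, a low-count filter, edgeR's newer form, the highest isoform, a replicate block, an FDR below 0.05 and leaving out each replicate number.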

Additional observations from a re-analysis of the deposited data

Results flagged for a closer look

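Of 201 groups of 5 or 6 libraries of the genes given week by week, 51 held 1 library that lay apart from the rest by Dixon's criterion. Chance alone separates about 1 in 20 groups, and in 32 of the 51 the gene was read in a single library of the group, so that any read sets it apart.

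In the MBH, Hspb7 was read in 1 library in week 28 (0.512 CPM, replicate 6) and in 1 in week 32 (0.807 CPM, replicate 4). Hspb1 had its highest value of 12 weeks in replicate 6 (31.5 CPM), and Hspa5 its lowest of 28 weeks in replicate 2 (108 CPM). Dnajc25 stood at 0.377 CPM in 1 LP library, and at 0.682, 0.645 and 4.84 CPM in weeks 4, 24 and 32.

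In the DMH, Hspa5 was high in 1 library in week 8 (64.2 CPM) and in 1 in week 24 (87.1 CPM, both replicate 2), and in week 32 replicate 3 was at 0 while the other 5 libraries held reads. Dnajc25 stood apart in weeks 4, 16, 28 and 32 with 0.407, 0.36, 2.99 and 3.11 CPM. Dnajc28 did so in weeks 4, 8, 16 and 28 with 2.03, 0.642, 1.62 and 2.12 CPM.

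In the PVN, Hspa8 was low in replicate 3 in week 16 (462 CPM) and Hspa5 high in replicate 5 in week 4 (1153 CPM). Single libraries set Hspa12b apart with 4.6 CPM in LP, 60.2 in week 12 and 6.55 in week 32. Hspb2 stood apart with 2.3 CPM in LP and with 13.6, 2.38, 10.3 and 4.36 CPM in weeks 4, 8, 16 and 28, and Hspb7 with 5.46 CPM in week 12.

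In the pituitary, Hspa5 was high in replicate 2 in week 28 (714 CPM). The genes called there were set apart in most groups in which they were read. Dnajc27 stood at 121 CPM in LP and at 10.5, 8.26, 289.4, 5.56, 229, 9.25 and 16.3 CPM in the weeks with a single outlying library, which were all but week 8. Dnajb5 stood at 171 CPM in week 16, 17.7 in week 20 and 107 in week 24. Dnajc13 stood at 52.1 CPM in LP and at 52.4, 5.33, 40.5, 16.4 and 22.3 CPM in weeks 8, 16, 24, 28 and 32, and Dnajc17 at 16.3 CPM in week 8, 51.5 in week 12 and 3.88 in week 28.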

How the results depend on the processing

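Low counts limit these tests: the members called over the 9 groups were each read in fewer than 50% of the libraries of their tissue. The counts of called members under other settings stand here without the share of all genes called under the same setting. They are therefore not read as results about the members. In the MBH 1 member was called over the 9 groups. That count was 0 with edgeR's low-count filter, with DESeq2, with the replicate block, at an FDR below 0.05 and whenever 1 replicate number was left out (0 to 0), and 3 with the highest isoform in place of the sum. The highest isoform also gave 1 member in induction, 1 in maintenance and 2 in recovery against maintenance in the MBH, with Hspb7 at a log2 fold change of 3.95 in maintenance. This setting adds no isoform counts together. The counts of Hspb7, which was listed with 1 isoform, stayed the same under it, while counts of other genes, library sizes and scaling changed. The cause of the difference was not tested. For the F-test the adjusted p of Hspb7 was 0.305 with the replicate block, and 0.201 to 0.412 without 1 replicate number.

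In the DMH, library totals without TMM gave 2 members over the 9 groups and 1 in maintenance (Dnajc25, log2 fold change -2.46), and leaving out 1 replicate number gave 0 to 1 in maintenance, with Dnajc28 between -3.51 and -1.70. In the pituitary the 3 calls over the 9 groups became 0 with the low-count filter, DESeq2 or the highest isoform, 6 with edgeR's newer form or the replicate block, and 3 to 6 without 1 replicate number. The 1 call in maintenance became 0 with the low-count filter, DESeq2 (Dnajc13 at -2.67), the highest isoform (-2.49) or an FDR below 0.05, and 0 to 1 without 1 replicate number, with Dnajc13 between -3.61 and -2.51. Recovery against LP gave 0 to 1 and recovery against maintenance 0 to 1 without 1 replicate number in the pituitary, and the latter 1 with edgeR's newer form and with the replicate block. The causes were not tested. The adjusted p of Dnajc17 was 0.677 with the block. The correlation of Hspa5 and Hsp90b1 in the PVN was 0.60 when libraries under 10000 counts were kept.

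Same-numbered libraries of different groups had a median correlation of deviations of 0.102 in the MBH, 0.0837 in the DMH, 0.0874 in the PVN and 0.0881 in the pituitary. The correlation was over 0.1 in 107 of 208 pairs in the MBH and 86 of 200 in the PVN. For libraries with different numbers the medians were -0.0027, -0.020, -0.016 and -0.023 in the same order of tissues. Same-numbered libraries were thus slightly more alike in each tissue. The source of this likeness was not tested, and the replicate block is given as an alternative only. Leaving out libraries under 50000 counts, chosen after seeing the data, left the counts of called members within 1.5 times but ended the call of Dnajc17 in the pituitary (adjusted p 0.167). Of 89 named log2 fold changes in maintenance that were not called, 44 changed sign under at least 1 alternative. No called value reversed.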

Other observations

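The chaperonin TRiC and its partner prefoldin, which fold actin and tubulin in the cytosol, were described as a set of 14 genes, of which 13 or 14 were read in 50% or more of the libraries of each tissue. Of these none was called in any tissue by edgeR, none had an F-test p below 0.05, and the median log2 fold change from LP to maintenance was 0.08 in the MBH, -0.17 in the DMH, -0.06 in the PVN and 0.06 in the pituitary. DESeq2 called none of them either.

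Immediate early genes, such as Fos, Egr1 and Arc, mark recent activity of cells. In the DMH 5 of the 15 listed genes had an F-test p below 0.05 and 5 were lower in maintenance at an unadjusted p below 0.05, against 14.2% and 8.91% of all DMH genes, with a median log2 fold change of -1.20 against -0.27 over all DMH genes, and none was called by edgeR or DESeq2 at an FDR below 0.1. Only 1 of the 15 was read in 50% or more of the DMH libraries. In the MBH 2 of 16 genes had an F-test p below 0.05, against 7.65% of all genes, and the median in maintenance was -0.38. In the pituitary it was 5 of 16, against 17.7% of all genes, with a median of 0.61.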
